A study of Mus musculus with 6 samples.

Results

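The 10 genes described here encode glutathione transferases (Gsta1, Gm3776, Gsta3, Gsta4, Gstm1, Gstm2, Gstp1 and Gsto1) and glutathione peroxidases (Gpx2 and Gpx3), out of 31055 features counted in single cells of the mouse mammary gland. They were chosen by name with their levels in these libraries known, and Gsta1 and Gm3776 were chosen because no molecule of either was counted in the fibroblasts of tumours. The levels of all 10 genes in fibroblasts of tumours against the other states are therefore given as a description, with no test. Tests are given for fibroblasts before the tumour stage, for epithelial, endothelial and macrophage cells, and for 46 other genes of glutathione metabolism.

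All cells came from female C3(1)-Tag mice, a model on the FVB/NJ background in which regulatory sequence of the rat C3(1) gene drives a transgene of the SV40 large T antigen, so that every group, Prepuberty included, carried the transgene and no wild-type gland was compared. The 6 libraries fell into 3 states of 2 libraries each. Prepuberty libraries were whole glands of 5 week old mice, DCIS libraries were whole glands of 14 week old mice with ductal carcinoma in situ, and Tumor libraries were palpable mammary tumours of mice older than 18 weeks. The labels number the libraries and do not say that they came from separate animals, so p-values describe the spread between libraries, which may be technical. The labels give the same digestion and kit for all samples. The study's methods instead state that glands were digested overnight and that tumours were dissociated with another kit. They also state that Tumor 2 was made with a later version of the capture kit. The dissociation and the Tumor state cannot be told apart, nor can the capture kit and Tumor 2 where the Tumor libraries differ.

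After filtering, 21537 cells remained, with medians of 6541 to 13631.5 UMIs per cell by library (unique molecular identifiers, each standing for 1 captured RNA molecule). Cells were clustered and named by marker genes, and "-like" marks such a name. Fibroblast-like cells numbered 6319, with 2120 and 1718 in the Prepuberty libraries, 650 and 1303 in DCIS, and 250 and 278 in Tumor. Levels are CPM, the UMIs of a gene per 1000000 UMIs of that cell class in that library. All 8 fibroblast markers were counted in the fibroblast-like cells of every library, at a summed level of 6637 to 22330 CPM. T antigen UMIs were found in 29.6% and 43.9% of the fibroblast-like cells of Tumor 1 and Tumor 2 and in at most 0.615% in the other 4 libraries. In the Tumor fibroblast-like cells the summed level of 8 myoepithelial markers was 1150 and 406.8 CPM, against 14.41 to 45.09 CPM elsewhere, and that of 10 epithelial markers was 585.5 and 189.3 CPM, against 23.93 to 126 CPM. In each Tumor library 2 of the 8 myoepithelial and none of the 10 epithelial markers were at 0. Sums of 6 T cell markers (40.85 and 155.3 CPM against 0.6403 to 6.624 CPM) and 8 pericyte markers (69.06 and 54.21 CPM against 9.443 to 25.94 CPM) were also higher there, with 0 and 1 of the T cell markers and 1 and 1 of the pericyte markers at 0 in Tumor 1 and Tumor 2. Their part in the results was not tested beyond leaving out the cells with T antigen. Values without the T antigen-positive cells are therefore given beside the results for fibroblast-like cells. A cell counts as positive if it had any T antigen UMI. The study warns of expression missed in single cells, so cells that expressed T antigen may remain among those without a UMI.

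Glutathione is a tripeptide that cells use to neutralise peroxides and reactive chemicals. Glutathione transferases join it to electrophilic compounds and fall into classes named by Greek letters, here alpha (Gsta), mu (Gstm), pi (Gstp) and omega (Gsto). Glutathione peroxidases use it to reduce hydrogen peroxide and lipid peroxides to water and alcohols. Many genes of this system are induced by the transcription factor NRF2 through antioxidant response elements in their promoters.

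Positions are from GENCODE M21 on GRCm38, in which all 10 gene identifiers of the count tables were found. Gsta1 (ENSMUSG00000074183, chr9:78230656-78242684, plus strand) and Gm3776 (ENSMUSG00000111709, chr9:78257129-78269166, plus strand) are alpha-class neighbours with 14444 bases between them, and Gsta4, whose product favours toxic aldehydes from lipid peroxidation, lies upstream of both at chr9:78182774-78209349. Gsta3 lies apart from them at chr1:21240589-21265661. Gstm1 (chr3:108012255-108017973) and Gstm2 (chr3:107981702-107986453) are neighbours on the minus strand. Gstp1 is at chr19:4035407-4037985, Gsto1 at chr19:47854970-47864790, Gpx2 at chr12:76792333-76795554 and Gpx3 at chr11:54902453-54910377.

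The promoters of Gsta1 and Gm3776 are shown because their 2 levels moved together over cell classes and libraries. The windows, from RefSeq on GRCm38.p6, run from 250 bases before to 50 after the annotated start, chr9:78230419-78230718 and chr9:78256879-78257178, both on the plus strand. Of the 287 bases at which they overlap after an offset of 13, 284 were identical (99%), and the 3 that differ are in capitals.
Gsta1: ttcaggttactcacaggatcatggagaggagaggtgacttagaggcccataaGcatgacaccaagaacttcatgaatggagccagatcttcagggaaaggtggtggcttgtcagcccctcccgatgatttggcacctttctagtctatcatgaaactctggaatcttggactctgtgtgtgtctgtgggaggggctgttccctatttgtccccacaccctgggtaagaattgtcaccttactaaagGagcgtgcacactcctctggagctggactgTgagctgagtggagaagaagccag
Gm3776: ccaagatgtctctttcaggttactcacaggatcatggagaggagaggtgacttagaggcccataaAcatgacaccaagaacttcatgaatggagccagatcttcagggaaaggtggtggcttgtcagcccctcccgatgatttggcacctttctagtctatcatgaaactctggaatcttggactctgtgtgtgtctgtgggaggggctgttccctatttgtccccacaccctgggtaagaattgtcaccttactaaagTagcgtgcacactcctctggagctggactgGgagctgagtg

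The transcripts are close as well. Of 341 windows of 60 bases in the last 400 bases of the Gsta1 transcript, where this kind of library is read, 82.1% occurred in the Gm3776 transcript and 18.5% in that of Gsta2, a further alpha-class gene. Reads from these genes could be split among them or dropped, so the levels of Gsta1 and Gm3776 apart from each other are uncertain. No window was shared by Gsta1 with Gsta3 or Gsta4, nor by Gstm1 with Gstm2.

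The Gstp1 promoter (chr19:4037863-4038162, minus strand) is shown because it was the only member promoter with an AP-1 site. The site, searched as TGANTCA on both strands, is in capitals and occurred in 7.81% of 32851 RefSeq promoters of this length.
Gstp1: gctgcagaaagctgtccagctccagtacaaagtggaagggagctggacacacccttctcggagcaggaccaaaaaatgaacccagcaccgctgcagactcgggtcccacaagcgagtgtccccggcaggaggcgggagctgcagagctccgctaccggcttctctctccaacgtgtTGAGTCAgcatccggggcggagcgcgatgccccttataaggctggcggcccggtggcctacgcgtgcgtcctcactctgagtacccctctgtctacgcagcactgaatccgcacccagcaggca

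The antioxidant response element core, searched as TGACNNNGC on both strands, was in 12.4% of all promoters and, among the members, in that of Gsta3 only. Gsta4 had no promoter entry in the table used. Gstp1 also shares 90.9% of its last windows with its neighbour Gstp2, and Gstp2 reached at most 7.142 CPM in fibroblast-like cells.

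In fibroblast-like cells Gsta1 and Gm3776 were abundant in whole glands and absent from the counts of both tumours. Gsta1 was at 64.67 CPM in Prepuberty 1, 306.5 CPM in Prepuberty 2, 51.52 CPM in DCIS 1, 204 CPM in DCIS 2 and 0 in both Tumor libraries. Gm3776 was at 28.72 and 181.1 CPM in Prepuberty, 17.48 and 94.96 CPM in DCIS, and 0 in both Tumor libraries. For each gene the Prepuberty and DCIS levels overlapped, and Prepuberty 2 and DCIS 2 exceeded the other library of their state by more than the states differed. Against a limit of 3 UMIs over the Tumor libraries together, Gsta1 was at least 387.6-fold lower in Tumor than in DCIS (0 against 2203 UMIs) and at least 440-fold lower than in Prepuberty (0 against 6436 UMIs). The bounds for Gm3776 were at least 174.2-fold (0 against 990 UMIs) and at least 245.8-fold (0 against 3595 UMIs). All 4 bounds are for the class as a whole, whose make-up differed by state. In clustering without integration of the libraries, no Tumor cell lay in the cluster led by Gsta1. There 189 of 229 Tumor 2 cells lay in a cluster led by H19. In the matrix cluster shared with DCIS, the few Gsta1 UMIs did not set Tumor apart from DCIS 2.

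These bounds were lowest without DCIS 2 or Prepuberty 2, the libraries with the highest levels. For Gsta1 against DCIS the bound was 134.7 without DCIS 2, 152.4 without Tumor 2, 235.2 without Tumor 1 and 533.5 without DCIS 1. Against Prepuberty it was 169.1 without Prepuberty 2, 173 without Tumor 2, 267 without Tumor 1 and 801.5 without Prepuberty 1. The bounds for Gm3776 moved in the same order. Against DCIS its bound was 45.7 without DCIS 2, 68.5 without Tumor 2, 105.7 without Tumor 1 and 248.3 without DCIS 1. Against Prepuberty it was 75.1 without Prepuberty 2, 96.64 without Tumor 2, 149.1 without Tumor 1 and 473.5 without Prepuberty 1. Without T antigen-positive cells the bounds were 200.2 and 227 for Gsta1 and 89.99 and 126.8 for Gm3776, since fewer Tumor UMIs remained.

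The share of cells with a UMI gives the same counts per cell, and with no Gsta1 UMI in Tumor its Tumor share was bound to be 0. A Gsta1 UMI was found in 17.4% and 21.8% of Prepuberty, 8.77% and 21.6% of DCIS, and none of the Tumor fibroblast-like cells, whose median depths of 10956.5 and 14482.5 UMIs were above the 6832 to 10609 of the other libraries. After thinning each cell to 2000 UMIs the shares were 7.76% and 14.9% in Prepuberty and 3.54% and 13% in DCIS. None of 238 and 264 Tumor cells deep enough for thinning had one, which allows shares of up to 1.26% and 1.14%. For comparison, 0% to 1.37% of epithelial-like cells, at median depths of 8433.5 to 17053 UMIs, had a Gsta1 UMI, and none after thinning. These limits cover counting error only and, like the shares of 0, describe the values that chose the gene.

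Gsta3 and Gsta4, the other alpha-class members, were also at their lowest in Tumor. Gsta3 was at 9.101 and 18.31 CPM in Prepuberty, 7.912 and 19.63 CPM in DCIS, and 0 and 0.2101 CPM in Tumor, where a single UMI was counted. Its pooled level was 120.4-fold lower in Tumor than in DCIS, with a counting interval of 21.39 to 4774. Once T antigen-positive cells were left out, no Gsta3 UMI remained in Tumor, and the bounds were at least 20.72-fold against DCIS and at least 17.6-fold against Prepuberty. Gsta4 was at 315.7 and 312.3 CPM in Prepuberty, 192.1 and 540 CPM in DCIS, and 4.863 and 1.681 CPM in Tumor. No Tumor value of either gene reached any value of the other states, and Gsta4 was 140.8-fold lower than in DCIS and 107.2-fold lower than in Prepuberty on pooled UMIs. A Gsta4 UMI was found in 42.9% and 30.3% of Prepuberty, 26.5% and 38.8% of DCIS, and 4% and 2.88% of Tumor cells, and after thinning in 23.3%, 19.8%, 15.1%, 28.7%, 1.26% and 0.758%. Without T antigen-positive cells Gsta4 was 152-fold lower than in DCIS and 115.4-fold lower than in Prepuberty.

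Of the mu- and pi-class members, Gstm1 was lower in both Tumor libraries by a smaller amount, and Gstp1 and Gstm2 differed by library. Gstm1 was at 99.02 and 278.3 CPM in Prepuberty, 94.02 and 193.7 CPM in DCIS, and 41.17 and 48.11 CPM in Tumor, below every other library. Gstp1, a broad-range detoxifying enzyme, was at 79.26 and 175.3 CPM in Prepuberty, 25.21 and 152.5 CPM in DCIS, and 20.1 and 35.09 CPM in Tumor, where Tumor 2 overlapped DCIS 1. Gstm2 was at 44.18 and 44.32 CPM in Prepuberty and 43.24 and 66.95 CPM in DCIS, and the Tumor libraries split, with 62.25 CPM in Tumor 1 and 9.665 CPM in Tumor 2. On pooled UMIs Gstm1 was 3.465-fold, Gstp1 3.628-fold and Gstm2 1.921-fold lower in Tumor than in DCIS. The ratio for Gstp1 rested on DCIS 2, without which the fitted log2 change went from −2.39 to −0.65 and DCIS 1 (25.21 CPM) lay between the Tumor libraries. For Gstm2 the fitted change was −1.16 with all libraries, −0.36 without Tumor 2 and −3.44 without Tumor 1. The ratios without T antigen-positive cells were 3.459 for Gstm1, 3.83 for Gstp1 and 1.215 for Gstm2, whose Tumor levels were then 81.24 and 17.81 CPM.

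Gsto1 and Gpx3 did not share this pattern. Gsto1, an omega-class enzyme that reduces dehydroascorbate, was at 94.44 and 168.6 CPM in Prepuberty, 62.38 and 78.31 CPM in DCIS, and 124.5 and 126.5 CPM in Tumor. Both Tumor values lay above DCIS and between the Prepuberty values, and Gsto1 was 1.734-fold higher than in DCIS on pooled UMIs, but the fitted log2 change was 0.17 with TMM scaling and −0.01 without T antigen-positive cells. Gpx3, the secreted peroxidase of plasma and extracellular fluid, was at 295.2 and 622.7 CPM in Prepuberty, 412.7 and 467.6 CPM in DCIS, 821.5 CPM in Tumor 1 and 68.49 CPM in Tumor 2. The highest and the lowest Gpx3 value were thus both from Tumor libraries, and the pooled Tumor level, 1.227-fold lower than in DCIS, became 1.288-fold higher without T antigen-positive cells. Its fitted log2 change against DCIS was 0.37 without Tumor 2 and −3.62 without Tumor 1. Gpx2, a peroxidase known from the gut epithelium, had 10 UMIs in all fibroblast-like cells.

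**Figure D1:**
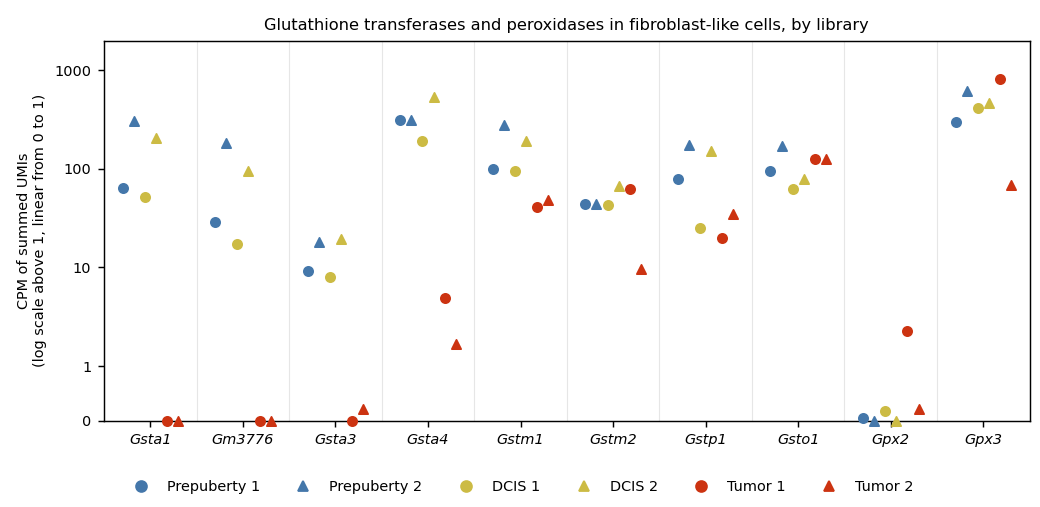
Level of each of the 10 members in fibroblast-like cells, in CPM on an axis that is linear from 0 to 1 and logarithmic above, with 1 point per library coloured by state (circles are library 1 of a state, triangles library 2). Gsta1 and Gm3776 sit at 0 in both Tumor libraries and between 17.48 and 306.5 CPM in the other 4, whereas Gpx3 in Tumor spans 68.49 to 821.5 CPM.

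Over the 9 members with enough UMIs for the fit in fibroblast-like cells, the median fitted log2 change was −2.39 for Tumor against DCIS and −2.68 for Tumor against Prepuberty, beside 0.13 and 0.03 over all 12139 genes. Because these contrasts chose the members, nothing is read from these medians. Fitted changes are scaled by TMM, which assumes that most genes do not differ, and are lower than ratios of CPM: with library totals in its place, an alternative chosen after seeing the data, the median over all genes moved from 0.13 to 0.83 for Tumor against DCIS and from 0.03 to 0.50 for Tumor against Prepuberty. On that scale the fitted change of Gstm1 against DCIS was −1.68, against −2.37 with TMM, and that of Gsto1 was 0.84. Between DCIS and Prepuberty, which the choice did not use, no member was called. All 9 adjusted p-values of edgeR's quasi-likelihood test lay between 0.548 and 0.955, none of the 9 had an unadjusted p under 0.05, DESeq2 called none, and 0% of the 12139 genes tested were called. The log2 change was −0.30 for Gsta1 (SE 0.82, adjusted p = 0.907), −0.65 for Gm3776 (SE 0.96, adjusted p = 0.817), 0.44 for Gsta4 (SE 0.60, adjusted p = 0.806) and −0.67 for Gsto1 (SE 0.37, adjusted p = 0.548). The members' median was −0.15, against −0.04 over all genes. With standard errors near 1 for Gsta1 and Gm3776, changes of that size on the log2 scale were not detectable between these states. With the library number as a block the changes were −0.23 (adjusted p = 0.795) and −0.60 (adjusted p = 0.487).

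Within the fibroblast-like cells the alpha-class members differed among the 5 clusters. The clusters were built from all variable genes, so these levels are a description. Gsta1 and Gm3776 led the genes that marked cluster 5, together with Akr1c18 and Pi16, a marker of adventitial fibroblasts. In cluster 5 Gsta1 was at 202.5 and 853.7 CPM in Prepuberty and 142.6 and 442.5 CPM in DCIS. In cluster 0, marked by the chemokine genes Ccl2 and Ccl7 and by Mmp3, it was at 46.6 and 35.89 CPM in Prepuberty and 46.52 and 108.3 CPM in DCIS. In each of these 4 libraries Gsta1 was higher in cluster 5 than in any other fibroblast-like cluster. In cluster 2, marked by Saa3, Cpxm1 and Il33, it was between 9.041 and 33.52 CPM, and in cluster 13, marked by Col1a1, Mmp11, Lrrc15 and Postn, between 5.991 and 21.15 CPM.

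With no UMI of Gsta1 or Gm3776 in the class, both were at 0 in each cluster with Tumor cells. Those cells lay mostly in cluster 2 (92 and 125 cells) and cluster 0 (63 and 78 cells), with 35 cells of each Tumor library in cluster 5, and 60 and 40 in cluster 13. DCIS cells lay mostly in cluster 0 (184 and 502) and cluster 5 (152 and 377), besides cluster 2 (189 and 291). In cluster 5, Gm3776 was at 96.52 and 508.2 CPM in Prepuberty, 58.77 and 203.3 CPM in DCIS, and 0 in both Tumor libraries. Gsta4 in that cluster was at 377.2 and 655.1 CPM in Prepuberty, 286.7 and 751.1 CPM in DCIS, and 2.205 and 0 CPM in Tumor. Its Tumor values were also the lowest in cluster 0, at 12.21 and 2.784 CPM against 242 to 800.3 CPM in the other libraries, and in cluster 2, at 2.971 and 1.542 CPM against 32.84 to 131 CPM.

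Cluster 20, marked by Cxcl12 and Clec3b, held 41, 83, 29 and 61 cells of the glands and none of the tumours. Its Gsta1 level was 4.99 and 2.951 CPM in Prepuberty and 0 in both DCIS libraries, whereas its Gsta3 level was 94.82 and 132.8 CPM in Prepuberty and 41.53 and 23.77 CPM in DCIS. Gstm1 was at 544 and 658 CPM in Prepuberty and 398.7 and 372.4 CPM in DCIS there. In every gland library both Gsta3 and Gstm1 were higher in this small cluster than over all fibroblast-like cells.

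Gpx3 differed between the tumours by cluster. In the matrix-gene cluster 13 Gpx3 was at 48.33 and 216.7 CPM in Prepuberty, 385.4 and 116.9 CPM in DCIS, 1442 CPM in Tumor 1 and 24.89 CPM in Tumor 2. In cluster 2 it was at 1286 CPM in Tumor 1 and 42.67 CPM in Tumor 2, and in cluster 5 at 429.9 and 278.2 CPM, against 586.2 to 857.6 CPM in the glands. In cluster 0 the order was the opposite, at 1.11 CPM in Tumor 1 and 29.93 CPM in Tumor 2. As a ratio of CPM, the tumours were farthest apart in cluster 13 and closest in cluster 5, and the Tumor 1 value in cluster 0 was 1 UMI. Gsto1 in cluster 0 was at 201 and 145.5 CPM in Tumor and at 69.33 to 207.1 CPM in the glands.

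**Figure D2:**
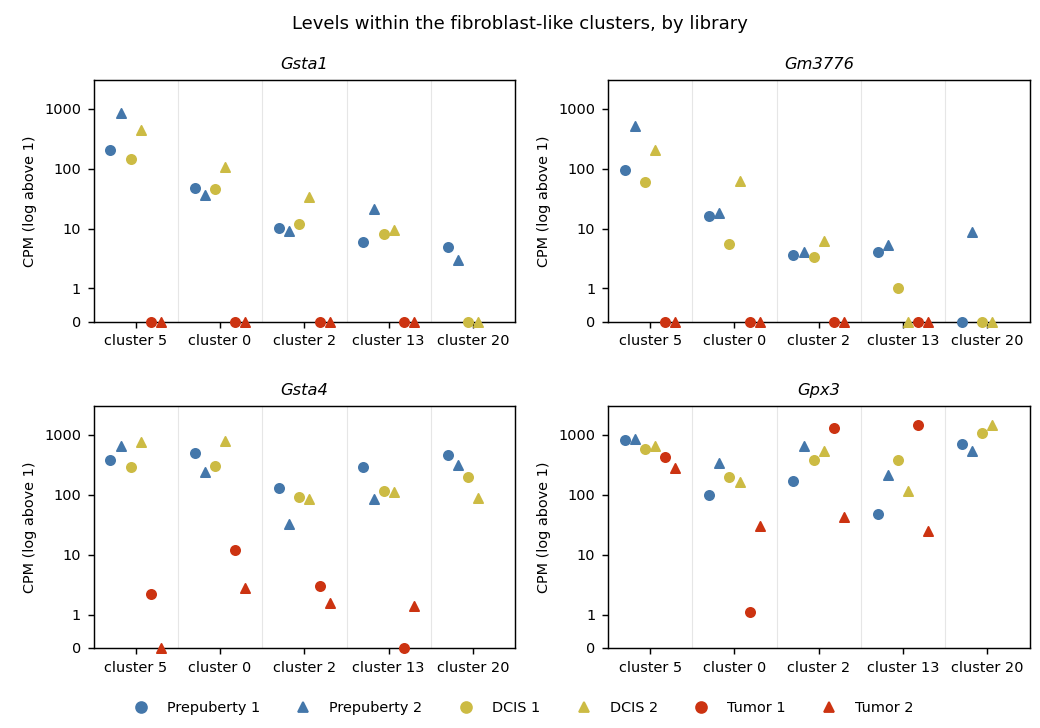
Levels of Gsta1, Gm3776, Gsta4 and Gpx3 in the 5 fibroblast-like clusters by library, in CPM on an axis linear from 0 to 1 and logarithmic above, coloured by state, with circles for library 1 and triangles for library 2. Gsta1 in gland libraries is highest in cluster 5 (142.6 to 853.7 CPM) and at 0 in Tumor in each cluster, while Gpx3 in cluster 13 is 1442 CPM in Tumor 1 and 24.89 CPM in Tumor 2.

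In clustering without integration of the libraries, the cluster led by Gsta1 and Gm3776 held 639, 1192, 120 and 483 gland cells and no Tumor cell. A matrix cluster led by Sfrp2, Col1a1 and Cthrc1 held 121 and 42 DCIS cells and 170 and 28 Tumor cells, with T antigen at 18.61 and 0 CPM in its Tumor cells. In that cluster Gsta1 was at 8.648 and 3.012 CPM in DCIS (11 and 1 UMIs) and 0 in both Tumor libraries, which allows up to 1.551 CPM in Tumor 1 and 10.88 CPM in Tumor 2 on 3 UMIs. Gsta3 and Gm3776 were at 2.358 and 1.572 CPM in DCIS 1 and 0 in DCIS 2 and both Tumor libraries. Gsta4 was at 114 and 30.12 CPM in DCIS but 2.068 and 0 CPM in Tumor there. Gstm1, in contrast, was at 51.1 and 93.36 CPM in DCIS, beside 49.62 and 134.2 CPM in Tumor, Gstm2 at 53.46 and 87.34 CPM in DCIS but 96.14 and 123.4 CPM in Tumor, and Gpx3 was at 382.9 and 250 CPM in DCIS but 1298 and 674.8 CPM in Tumor. In this cluster Gsta4 was thus lower and Gpx3 higher in both Tumor libraries, the Gstm2 values of Tumor lay within the counting interval of DCIS 2 (58.49 to 125.4 CPM), Gstm1 overlapped, and the few UMIs of Gsta1, Gsta3 and Gm3776 do not set Tumor apart from DCIS 2.

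Across the 9 named cell classes the members fell into groups by where they were counted, with the UMIs of all libraries pooled. Of the UMIs in named classes, fibroblast-like cells held 98.98% for Gsta1, 98.77% for Gm3776, 93.81% for Gsta3 and 91.96% for Gsta4. Epithelial-like cells held 95.86% of the Gpx2 UMIs, at 38.05 CPM, and the next level was 21.64 CPM in myoepithelial-like cells, but this order came from Tumor 1, the source of most of these UMIs. By library Gpx2 was higher in myoepithelial-like than in epithelial-like cells in 5 of 6, at 25.55 against 2.203 and 19.22 against 0.4267 CPM in Prepuberty, 13.93 against 3.546 and 18.85 against 1.791 CPM in DCIS, and 140.8 against 98.57 CPM in Tumor 1. The myoepithelial-like cells of Tumor 1 numbered 29, with a T antigen UMI in 44.8%. Without integration no Tumor cell was given that name. Gstm1 was highest in pericyte or smooth muscle-like cells in every library but Tumor 2, at 1043 CPM pooled, and by library at 1596, 1211, 448.8, 599.5, 113.6 and 18.1 CPM from Prepuberty 1 to Tumor 2. The last of these rested on 5 cells and the value before it on 19, and in Tumor 2 myoepithelial-like (51.43 CPM) and fibroblast-like cells (48.11 CPM) were among the classes above it. Gstm2 was likewise highest there on pooled UMIs, at 157.9 CPM, and in each gland library, at 87.81 to 234.9 CPM. In the tumours the levels there were 56.78 and 0 CPM, from 5 and 0 UMIs, below the 62.25 and 9.665 CPM of fibroblast-like cells. The pooled Gstp1 level was nearly the same in pericyte or smooth muscle-like (114.9 CPM) and fibroblast-like cells (105.1 CPM), a gap smaller than the spread of the fibroblast libraries.

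Gpx3 and Gsto1 were spread over more classes. Gpx3 was at 495.2 CPM pooled in pericyte or smooth muscle-like, 429.3 CPM in fibroblast-like and 315.1 CPM in epithelial-like cells, and the last class, the largest, held 55.35% of its UMIs in named classes. Gsto1 was at 113 CPM in fibroblast-like and 102 CPM in epithelial-like cells. Neither order of levels exceeds the range over the libraries of a class. Pooled levels weight each library by its UMIs, and Tumor libraries make up most of the epithelial-like UMIs.

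**Figure D3:**
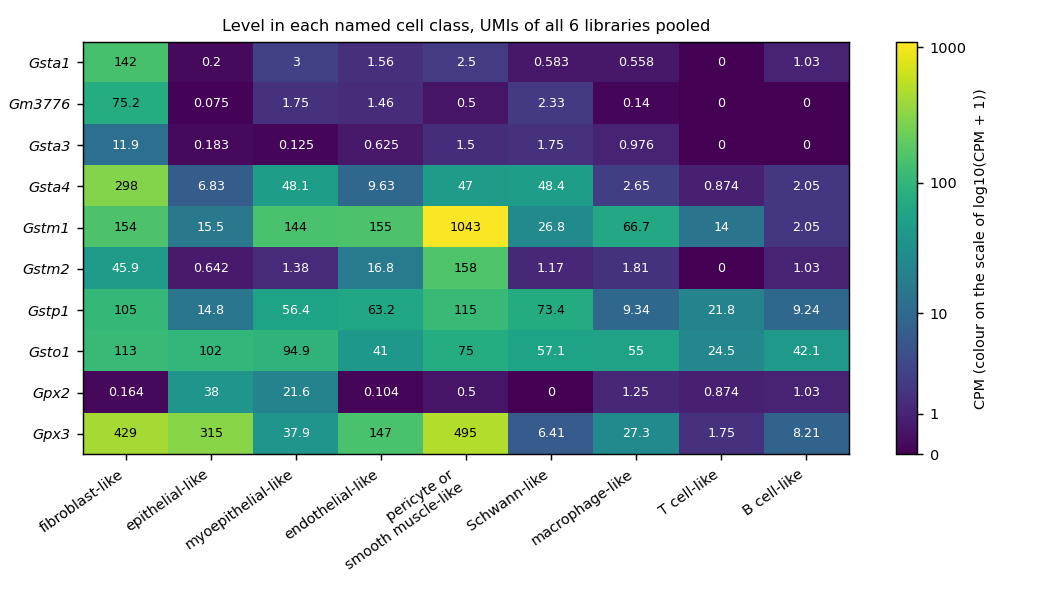
Heat map of the pooled level of each member (rows) in the 9 named cell classes (columns), in CPM over all 6 libraries on a logarithmic colour scale. Gsta1, Gm3776 and Gsta4 are highest in fibroblast-like cells (141.7, 75.22 and 298.2 CPM), Gstm1 in pericyte or smooth muscle-like cells (1043 CPM) and Gpx2 in epithelial-like cells (38.05 CPM), a pooled order that Tumor 1 sets and that was the reverse of the order with myoepithelial-like cells in 5 of 6 libraries.

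In epithelial-like cells, 7529 in all, Gpx3 was lower and Gsto1 higher in Tumor. The 5 epithelial-like clusters contributed unequally, with most Tumor cells in clusters led by Pthlh and Nppb or by cell-cycle genes and many cells of Prepuberty 1 and DCIS 2 in a cluster led by Tph1, Cxcl15 and Prlr. Gpx3 was at 1046 and 216.3 CPM in Prepuberty, 354.3 and 1080 CPM in DCIS, and 2.799 and 23.48 CPM in Tumor, with no overlap between Tumor and the glands. Gsto1 was at 39.89 and 35.84 CPM in Prepuberty, 40.27 and 23.93 CPM in DCIS, and 147.4 and 145.1 CPM in Tumor, also without overlap. Gstm2 was low throughout (77 UMIs), at 2.431 and 3.413 CPM in Prepuberty, 0.7212 and 0.8956 CPM in DCIS, and 0.1343 and 0.1814 CPM in Tumor. Markers of other cells moved with the state. The summed level of 8 myoepithelial markers in these cells was 1457 and 2581 CPM in Tumor, with none of the 8 at 0, against 236.8 to 1052 CPM in the glands. That of 5 erythroid markers was 32.96 and 170.8 CPM in Tumor, with none at 0, against 0 to 6.838 CPM. That of 10 epithelial markers was 8363 and 6573 CPM in Tumor, against 11120 to 22950 CPM. Myoepithelial-like cells of the glands had Gsto1 at 49.53 to 113.2 CPM and Gpx3 at 10.06 to 51.63 CPM, and the part of these markers in the results was not tested.

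Of the 7 members tested in epithelial-like cells, 1 was called higher and 2 lower in Tumor than in Prepuberty, where 3.01% of the 13367 genes tested were called higher and 3.45% lower. Gsto1 rose by 1.68 on the log2 scale (SE 0.34, adjusted p = 0.0374), while the change was −6.05 for Gpx3 (SE 1.26, adjusted p = 0.0387) and −4.41 for Gstm2 (SE 0.75, adjusted p = 0.0283), by edgeR with n = 2 libraries per state. Against DCIS none of the 7 passed, where 0.434% of genes were called higher and 0.995% lower. Gsto1 was at 1.81 (SE 0.34, adjusted p = 0.0518) and Gpx3 at −6.32 (SE 1.28, adjusted p = 0.056). In each of these contrasts 5 of the 7 had an unadjusted p under 0.05, and DESeq2 called Gsto1 (adjusted p = 0.000225), Gpx3 (adjusted p = 0.000116) and Gstm2 (adjusted p = 0.0289) against DCIS. The members' median change was −0.53 against Prepuberty and 0.27 against DCIS, beside 0.09 and 0.08 over all genes. With only the 4 libraries of the compared states in the fit, none of the 3 calls against Prepuberty passed, with adjusted p-values of 0.0679 for Gsto1, 0.0547 for Gpx3 and 0.0525 for Gstm2.

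Leaving out a library leaves its state with 1 library, which is then assumed to vary like the other states. Each call against Prepuberty was lost when Prepuberty 1, Prepuberty 2, DCIS 1 or DCIS 2 was left out, with adjusted p-values of 0.0738 to 0.184 for Gsto1, 0.0555 to 0.15 for Gpx3 and 0.0749 to 0.131 for Gstm2, and none was lost without Tumor 1 or Tumor 2. Against DCIS the adjusted p-values of Gsto1 and Gpx3 were 0.0406 and 0.0491 without Tumor 1 and 0.0205 and 0.0243 without Tumor 2. With a single Tumor library these fits hold no measure of the spread between tumours, and they are no support for a change that missed the threshold with all libraries.

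The difference in Gpx3 was present in cells with and without a T antigen UMI, although those without one may still have expressed it. In epithelial-like cells without a T antigen UMI, Gpx3 was at 1164 and 222.5 CPM in Prepuberty, 519.3 and 1276 CPM in DCIS, and 2.981 and 39.63 CPM in Tumor. In those with one it was at 703.8 and 113.4 CPM in Prepuberty, 120.4 and 545.6 CPM in DCIS, and 2.761 and 16.21 CPM in Tumor. The values of T antigen-positive cells were the lower in each library, but Prepuberty 2 had 3 such cells, and in Tumor 1 the counting intervals of 2.251 to 3.351 and 1.89 to 4.474 CPM overlapped. Without T antigen-positive cells the change against Prepuberty was −5.53, with an adjusted p of 0.0539. Gsto1 in cells without a T antigen UMI was at 172.8 and 155.8 CPM in Tumor and 23.53 to 43.88 CPM in the glands.

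Among the epithelial-like clusters Gpx3 was highest in cluster 11 in 5 of 6 libraries, the exception being Prepuberty 2. The leading genes of that cluster, among them Tph1, Cited1 and Prlr, include the gene of the prolactin receptor. In cluster 11 Gpx3 was at 2124 and 306.9 CPM in Prepuberty, 2797 and 3220 CPM in DCIS, and 53.96 and 440.6 CPM in Tumor, from 8 and 42 Tumor cells. In cluster 4, led by Ltf, Csn3 and Elf5, it was at 840.7 and 398 CPM in Prepuberty, 50.9 and 642.1 CPM in DCIS, and 3.861 and 13.78 CPM in Tumor. In cluster 1, led by cell-cycle genes, it was at 410.4 and 43.27 CPM, 14.53 and 139.5 CPM, and 2.173 and 15.94 CPM. Tumor 1 was the lowest library in each of these clusters, whereas Tumor 2 overlapped Prepuberty 2 in cluster 11 and DCIS 1 in cluster 1.

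Gpx2 was high in the epithelial-like cells of Tumor 1 only. In epithelial-like cells it was at 2.203 and 0.4267 CPM in Prepuberty, 3.546 and 1.791 CPM in DCIS, 98.57 CPM in Tumor 1 and 1.705 CPM in Tumor 2. It was at 95.87 CPM in the T antigen-positive and 111.5 CPM in the negative cells of Tumor 1, and between 32.37 and 184.7 CPM in the epithelial-like clusters of that library. In myoepithelial-like cells Tumor 1 was again the highest, at 140.8 CPM, against 0 in Tumor 2 and 13.93 to 25.55 CPM in the glands. That Tumor 1 value came from 29 cells, 44.8% of them with a T antigen UMI, and without integration no Tumor cell was named myoepithelial-like. Gpx2 was not called for the Tumor state (4.01 on the log2 scale against DCIS, SE 1.56, adjusted p = 0.174), and without Tumor 1 the value was −1.20 (adjusted p = 0.38), while without Tumor 2 it was 4.97 (adjusted p = 0.00632).

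The remaining members in epithelial-like cells were not called. Gstm1 was at 18.46 and 46.93 CPM in Prepuberty, 17.01 and 22.2 CPM in DCIS, and 10.17 and 15.31 CPM in Tumor, a change against Prepuberty of −1.60 (SE 0.43, adjusted p = 0.0678). Gstp1 was at 10.79 and 18.35 CPM in Prepuberty, 5.169 and 12.28 CPM in DCIS, and 15.74 and 21.99 CPM in Tumor, which lay above DCIS but overlapped Prepuberty. Gsta4 was at 9.193 and 9.387 CPM in Prepuberty, 4.087 and 5.758 CPM in DCIS, and 3.336 and 13.43 CPM in Tumor, whose values spanned both other states. Between DCIS and Prepuberty no member was called, and 0% of the 13367 genes were. Only Gstm2 had an unadjusted p under 0.05 (−1.69, adjusted p = 0.378), and DESeq2 called 2 genes of the members and the 46 other genes together.

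In endothelial-like cells, Gsto1 was again higher in Tumor, Gstm1 was lower than in both other states, and Gstm2 was lower than in Prepuberty. Tumor held 79 and 35 of these cells, against 354 to 702 in the other libraries. Cluster 6, led by Gpihbp1 and Cldn5, held 372 and 467 Prepuberty, 169 and 185 DCIS, and 72 and 30 Tumor cells. Cluster 10, led by Ackr1 and Selp, held 330 and 200 Prepuberty, 255 and 169 DCIS, and 7 and 5 Tumor cells. Gsto1 was at 35.91 and 48.74 CPM in Prepuberty, 19.15 and 27.44 CPM in DCIS, and 113.5 and 104.2 CPM in Tumor, above every gland library. Gstm1 was at 142.4 and 274.3 CPM in Prepuberty, 32.99 and 61.37 CPM in DCIS, and 12.75 and 27.8 CPM in Tumor. Gstm2 was at 19.89 and 26.34 CPM in Prepuberty, 4.611 and 5.054 CPM in DCIS, and 1.275 and 0 CPM in Tumor. The Gstm1 values of the 3 states did not overlap, in the order Prepuberty, DCIS, Tumor, although the 8 UMIs behind the Tumor 2 value give a counting interval of 12 to 54.77 CPM that takes in DCIS 1. For Gstm2 Prepuberty was above the other states, whereas Tumor held 1 UMI and the 0 of Tumor 2 allows up to 10.42 CPM on 3 UMIs, so DCIS and Tumor were not told apart. Within cluster 6 Gsto1 was at 38.29 and 53.96 CPM in Prepuberty, 16.28 and 29.1 CPM in DCIS, and 110.5 and 104.3 CPM in Tumor. Gstm1 there was at 155.2 and 320.3 CPM, 40.7 and 79.72 CPM, and 12.27 and 28.76 CPM. Cluster 10 held too few Tumor cells to compare.

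Of the 6 members tested there, 1 was called higher and 1 lower in Tumor than in DCIS, where 6.98% of 10468 genes were called higher and 6.23% lower. Against Prepuberty 1 was called higher and 2 lower, where 6.94% were called higher and 4.78% lower. Gsto1 rose by 1.88 against DCIS (SE 0.28, adjusted p = 0.00604) and by 1.33 against Prepuberty (SE 0.26, adjusted p = 0.0151). Gstm1 fell by 1.74 against DCIS (SE 0.47, adjusted p = 0.0447) and by 3.57 against Prepuberty (SE 0.46, adjusted p = 0.00319), and Gstm2 was called lower against Prepuberty (adjusted p = 0.00678). With 1 Gstm2 UMI in Tumor its pooled level was 25.11-fold lower than in Prepuberty, with a counting interval of 4.472 to 995.1. The members' median change was −1.92 and −3.41, beside −0.02 over all genes in both contrasts. The call of Gstm1 against DCIS was lost without DCIS 1 (adjusted p = 0.0613), DCIS 2 (0.173), Tumor 1 (0.209) or Tumor 2 (0.0696), and that of Gsto1 against Prepuberty without Prepuberty 1 (0.117), Prepuberty 2 (0.0791) or Tumor 1 (0.09). The call of Gstm1 against DCIS was also lost with library totals in place of TMM scaling (−1.40, adjusted p = 0.113). The other 3 calls held when any single library was left out.

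Without integration the values for Gsto1 turned to −1.62 against DCIS and −2.17 against Prepuberty, and that for Gstm1 against DCIS to 0.86. In that clustering 80 of the 114 Tumor endothelial-like cells lay in an unnamed cluster led by Igfbp3, Kcne3, Esm1 and Apln, leaving 28, in which 1 UMI of Gsto1 and 11 of Gstm1 were counted. The calls of Gstm1 and Gstm2 against Prepuberty were lost as well (adjusted p = 0.422 and 0.287). With that cluster added, a choice made after seeing the data, Gsto1 was at 1.92 (adjusted p = 0.00278) and 1.39, and Gstm1 at −1.95 (adjusted p = 0.0353).

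Between DCIS and Prepuberty no member was called in endothelial-like cells, where 0% of genes were. Unadjusted p-values under 0.05 were found for Gstm1 (−1.83, SE 0.36, adjusted p = 0.22), Gstm2 (−1.93, SE 0.36, adjusted p = 0.21) and Gpx3 (−2.11, SE 0.77, adjusted p = 0.392). DESeq2 called Gstm1 (adjusted p = 0.015), as did edgeR with the library number as a block (adjusted p = 0.0434). The summed level of 8 pericyte markers in these cells was 591.4 and 823 CPM in Prepuberty, 128 and 321.7 CPM in DCIS, and 583.9 and 531.6 CPM in Tumor, with none of the 8 at 0 in any library. That of 8 fibroblast markers was 286.9 and 226.3 CPM, 57.11 and 61.73 CPM, and 341.7 and 302.3 CPM. Both sums were lowest in DCIS, as was Gpx3. Sums of 2 other marker lists fell in the order Prepuberty, DCIS, Tumor, the order of the Gstm1 values. For 5 erythroid markers the sum was 1051 and 157.9 CPM in Prepuberty, 34.41 and 64.62 CPM in DCIS, and 1.275 and 6.949 CPM in Tumor, where 4 of the 5 were at 0. For 4 adipocyte markers it was 41.36 and 93.7 CPM, 3.547 and 22.38 CPM, and 0 in both Tumor libraries. The part of these markers in the results was not tested.

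Gpx3 in endothelial-like cells was at 69.53 and 301.3 CPM in Prepuberty, 17.73 and 50.54 CPM in DCIS, and 204 and 52.12 CPM in Tumor. Over the class as a whole the Tumor values were the higher against DCIS, by 1.72 on the log2 scale (SE 0.79). The adjusted p of 0.181 by edgeR did not pass. Within cluster 6 only Tumor 1, with 218.2 CPM, exceeded both DCIS libraries (19.54 and 68.96 CPM). Tumor 2, with 53.93 CPM, fell between them. In each DCIS library Gpx3 was lower in cluster 10, which held few Tumor cells. The part of this mix in the difference was not tested. Gstp1 was at 76.21 and 87.16 CPM in Prepuberty, 6.03 and 56.32 CPM in DCIS, and 5.1 and 17.37 CPM in Tumor, a change of −3.24 against Prepuberty (SE 1.00, adjusted p = 0.0726).

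In macrophage-like cells, 4 members had enough UMIs and none was called in any contrast. The shares of the 7835 genes called were 0.102% between DCIS and Prepuberty, 2.36% higher and 3.96% lower in Tumor than in DCIS, and 1.86% higher and 3.97% lower in Tumor than in Prepuberty. Gsto1 was at 13.16 and 39.46 CPM in Prepuberty, 21.41 and 28.26 CPM in DCIS, and 89.47 and 70.22 CPM in Tumor, a change of 1.15 against DCIS (SE 0.44, adjusted p = 0.133). Gstm1 was at 41.68 and 211.8 CPM in Prepuberty, 70.71 and 134.5 CPM in DCIS, and 43.19 and 20.15 CPM in Tumor, a change of −2.17 against DCIS (SE 0.64, adjusted p = 0.0692). Both genes had an unadjusted p under 0.05 in both Tumor contrasts, and no member had one between DCIS and Prepuberty, where DESeq2 called none. The Tumor values of Gsto1 lay above all gland values, whereas those of Gstm1 overlapped Prepuberty 1. Neutrophil markers summed to 913.6 and 4896 CPM in the Tumor macrophage-like cells, against 40.69 to 342.6 CPM in the glands, and their part was not tested.

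**Figure D4:**
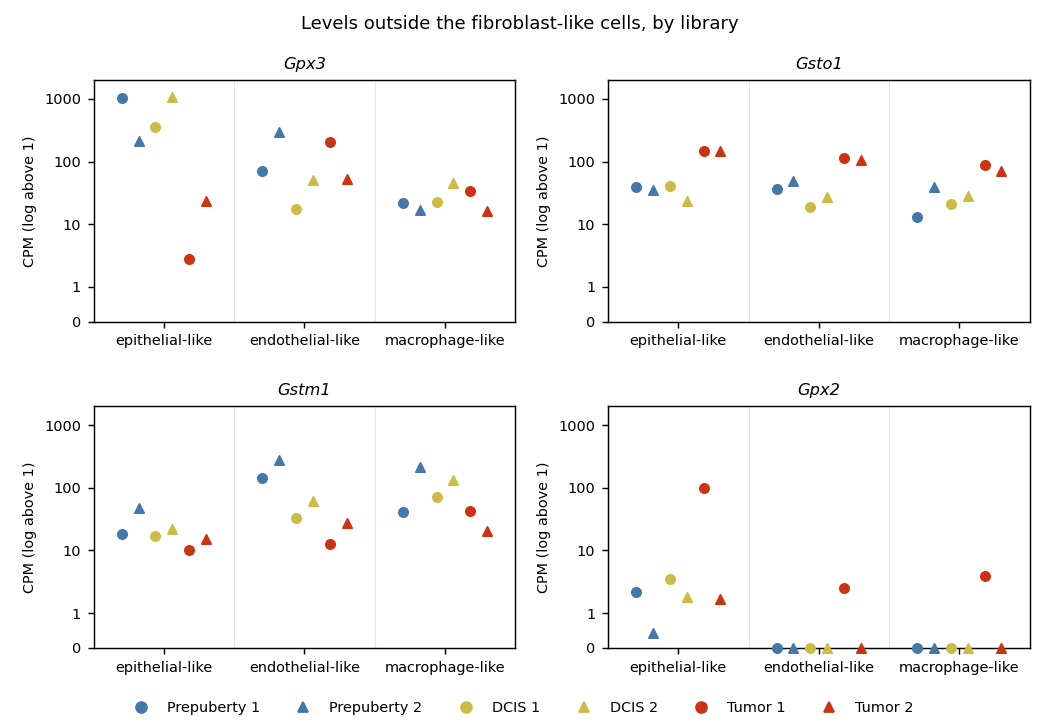
Levels of Gpx3, Gsto1, Gstm1 and Gpx2 in epithelial-like, endothelial-like and macrophage-like cells by library, in CPM on an axis linear from 0 to 1 and logarithmic above, coloured by state, with circles for library 1 and triangles for library 2. Gsto1 in Tumor is above every gland library in all 3 classes (for example 147.4 and 145.1 CPM against 23.93 to 40.27 CPM in epithelial-like cells), and Gpx2 stands out in Tumor 1 only (98.57 CPM).

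The change of Gpx3 from DCIS to Tumor differed among the 3 classes by the interaction test of edgeR. It was lower in epithelial-like than in endothelial-like cells by a log2 difference of −8.29 (adjusted p = 0.025, with 3.99% of genes called) and than in macrophage-like cells by −5.67 (adjusted p = 0.00466, 4.09% called). Between endothelial-like and macrophage-like cells the difference was 2.56 (adjusted p = 0.0295, 3.7% called). The endothelial-like clusters, which were mixed unequally by state, were not tested apart. For Gsto1, which was higher in Tumor in each class, the differences were 0.06, 0.74 and 0.75, with adjusted p-values of 0.985, 0.461 and 0.4, so no difference between classes was shown.

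The other genes of the glutathione system were taken from a list of 46 that covers further transferases and peroxidases, synthesis, recycling and breakdown, and was written with earlier results of these data known. In fibroblast-like cells 38 could be tested. Against DCIS 2 were higher and 8 lower in Tumor, where 7.76% of all genes (942) were called higher and 5.42% (658) lower, and 2773 higher and 414 lower with library totals. Against Prepuberty 2 were higher and 8 lower, where 6.2% (753) were called higher and 2.58% (313) lower, and 1280 higher and 206 lower with library totals. The list counts were then 10 and 9. The median change of the 38 was −0.60 and −0.66, beside 0.13 and 0.03 over all genes. The count of 10 against DCIS was 6 without DCIS 1 and 2 without DCIS 2. The count of 10 against Prepuberty was 3 without Prepuberty 2, 4 without Prepuberty 1, 5 without Tumor 2 and 6 without DCIS 1 or DCIS 2.

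The genes of glutathione synthesis and cystine supply were among those that fell, 4 of 6 against DCIS (median −2.56) and 3 of 6 against Prepuberty (median −1.97). Slc7a11, the transport subunit of the cystine-glutamate exchanger that brings in the limiting amino acid, was at 98.97 and 106.1 CPM in Prepuberty, 47.29 and 231.6 CPM in DCIS, and 0.6484 and 1.891 CPM in Tumor. It fell by 7.41 against DCIS (SE 0.90, adjusted p = 0.00797) and by 6.75 against Prepuberty (adjusted p = 0.00869), and passed in every alternative run. Gclm, the modifier subunit of the rate-limiting glutamate-cysteine ligase, was at 282.7 and 489.8 CPM in Prepuberty, 263.1 and 595.3 CPM in DCIS, and 29.83 and 61.98 CPM in Tumor. It fell by 3.95 against DCIS (SE 0.54, adjusted p = 0.0093) and by 3.57 against Prepuberty (adjusted p = 0.0112), and was lost only without DCIS 2 (adjusted p = 0.0672) and without Prepuberty 2 (adjusted p = 0.0645), respectively. Gclc, the catalytic subunit, fell by 2.87 (adjusted p = 0.0129) and 2.03 (adjusted p = 0.0347), and Slc3a2, the partner chain of Slc7a11, fell by 2.24 against DCIS (adjusted p = 0.0161). The changes against DCIS without T antigen-positive cells were −8.79 for Slc7a11, −4.27 for Gclm, −2.72 for Gclc and −2.27 for Slc3a2, and all 4 passed, whereas Gclc against Prepuberty did not (−1.88, adjusted p = 0.0586). Gclc against DCIS was also lost without DCIS 2 (adjusted p = 0.0874) or Tumor 2 (0.0587), and against Prepuberty without any library of the compared states (0.0678 to 0.129). Slc3a2 was lost without DCIS 1 (0.0777) or DCIS 2 (0.127).

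Further genes that fell in Tumor fibroblast-like cells were Ggt5, a transpeptidase that cleaves glutathione conjugates outside the cell, by 4.10 against DCIS (SE 0.40, adjusted p = 0.00644), the peroxidase gene Prdx6 by 2.98 (adjusted p = 0.013), and Abcc1, an exporter of glutathione conjugates, by 2.32 (adjusted p = 0.0214). Abcc1 was lost without DCIS 1 (adjusted p = 0.0758) or DCIS 2 (adjusted p = 0.145) and with library totals (−1.55, adjusted p = 0.0557). Against Prepuberty Ggt5 fell by 3.39 (adjusted p = 0.00725), and Prdx6, G6pdx and Glrx fell by 1.92, 1.8 and 1.76 (adjusted p = 0.0454, 0.0355 and 0.0446). Gsta2, the alpha-class gene that shares windows with Gsta1, was at 19.39 and 53.41 CPM in Prepuberty, 17.48 and 39.26 CPM in DCIS, and 0 in both Tumor libraries, so its fitted change is no measure of size. The genes that rose were Mgst2, a microsomal transferase, by 5.58 (SE 0.80, adjusted p = 0.0098), and Gstk1, the mitochondrial kappa-class transferase, by 2.97 (SE 0.61, adjusted p = 0.0237). Mgst2 was at 0.184 to 0.4244 CPM in the glands and at 10.7 and 44.75 CPM in Tumor. Its call against DCIS was lost without DCIS 1 (adjusted p = 0.065) or DCIS 2 (adjusted p = 0.083). Gstk1 against DCIS was lost without DCIS 1, DCIS 2 or Tumor 2 (adjusted p = 0.158, 0.155 and 0.111), and Prdx6 and Gsta2 without DCIS 2 (0.101 and 0.0523). Of the 10 calls against DCIS, those of Slc7a11 and Ggt5 were the 2 that passed whichever library was left out. Leaving out T antigen-positive cells, the changes against DCIS were −3.33 for Ggt5, −2.81 for Prdx6, −2.41 for Abcc1, 5.83 for Mgst2 and 2.71 for Gstk1, and all 5 passed. Against Prepuberty Prdx6 (−1.76, adjusted p = 0.0656) and Glrx (−1.51, adjusted p = 0.091) then did not pass. The main cellular peroxidase genes Gpx1 and Gpx4 were not called, with Gpx1 at 188.4 to 429.4 CPM in the glands and 382.2 and 331.5 CPM in Tumor, and Gpx4 at 608.7 to 943.3 CPM and 785.9 and 651.8 CPM.

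Slc7a11 and Gclm were also lower in Tumor endothelial-like cells. Gclm was at 781.3 and 607.9 CPM in Prepuberty, 493.7 and 757.8 CPM in DCIS, and 42.07 and 118.1 CPM in Tumor, and fell by 3.47 against DCIS (adjusted p = 0.00419). Slc7a11 was at 151.9 and 115.4 CPM in Prepuberty, 91.87 and 218 CPM in DCIS, and 1.275 and 0 CPM in Tumor, and Mgst1, a microsomal transferase, was at 349.4 and 455.6 CPM, 201.5 and 263.2 CPM, and 33.15 and 17.37 CPM. In neither gene did Tumor overlap the glands, and both fell against DCIS (adjusted p = 0.00271 and 0.00296). Chac1, a glutathione-degrading enzyme of the stress response, fell by 3.53 against DCIS (adjusted p = 0.0056), Gclc by 2.04 (adjusted p = 0.0102) and Slc3a2 by 1.90 (adjusted p = 0.00634). Of the 31 genes tested there, 4 were higher and 6 lower against DCIS, where 6.98% of all genes were called higher and 6.23% lower, and 3 higher and 5 lower against Prepuberty, where 6.94% and 4.78% were, with medians of −0.31 and −0.37. Those that rose against DCIS were Mgst3 (2.18), Gpx7 (1.87), Gpx8 (3.44) and Glrx (1.36), with adjusted p-values of 0.0139, 0.0157, 0.0141 and 0.0322. Glrx was lost without DCIS 1, DCIS 2 or Tumor 1. It was not the only list gene whose call was lost without Tumor 1, as the counts at the end of this paragraph show. Without integration, with 28 Tumor cells in the class, all 4 were lost and Glrx turned to −9.49 (adjusted p = 0.224), and of the 6 that fell Gclm (−3.77) and Slc3a2 (−2.26) alone passed. With the unnamed cluster added, Glrx was at 1.51 (adjusted p = 0.0143). The count over members and list together was 12 against DCIS, 7 without Tumor 1, and 11 against Prepuberty, 7 without Prepuberty 2, and the counts were 2 and 1 without integration.

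In macrophage-like cells 1 of the 24 list genes tested was higher and 5 lower in Tumor than in DCIS, and none higher and 3 lower against Prepuberty. The shares of all genes called higher and lower were 2.36% and 3.96% against DCIS and 1.86% and 3.97% against Prepuberty, so that 1 higher gene of 24 is close to the share of all genes. Gclm was at 300.5 and 535.8 CPM in Prepuberty, 271.8 and 232.8 CPM in DCIS, and 42.31 and 42.26 CPM in Tumor. It fell by 3.15 against DCIS (adjusted p = 0.00332) and by 3.69 against Prepuberty (adjusted p = 0.00125), and passed in every alternative run. Glrx, a glutaredoxin that removes glutathione from proteins, fell by 1.68 (adjusted p = 0.0318) and 1.5 (adjusted p = 0.0436), opposite to its change in endothelial-like cells, a difference that was not tested. The fall against DCIS was lost without DCIS 1 (adjusted p = 0.294), DCIS 2 (0.192), Tumor 2 (0.0775) or Prepuberty 2 (0.0531), and that against Prepuberty without any library but Tumor 1 (0.115 to 0.193). Against DCIS Slc7a11 (−2.87, adjusted p = 0.0279), Abcc1 (−1.95, adjusted p = 0.0489) and Mgst1 (−1.70, adjusted p = 0.0337) also fell and the glutaredoxin gene Glrx5 rose (1.63, adjusted p = 0.0376), and against Prepuberty the third gene that fell was Gsr, glutathione reductase (−1.92, adjusted p = 0.0356). Each of these 5 calls was lost when a library of the compared states was left out. The median of the 24 was −0.57 against DCIS and 0.13 against Prepuberty, beside 0.06 and 0.08 over all genes. The 6 calls against DCIS were 1 without DCIS 1 or DCIS 2 and 3 without Prepuberty 2 or Tumor 2, and the 3 against Prepuberty were 1 without DCIS 1, DCIS 2 or Prepuberty 2 and 6 without Tumor 1.

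In epithelial-like cells 1 list gene passed against DCIS, where 0.434% of all genes were called higher and 0.995% lower, and 4 passed against Prepuberty, where 3.01% were called higher and 3.45% lower. Of 41 tested, Mgst2 alone was higher against DCIS (4.35, SE 0.77, adjusted p = 0.0481) and none was lower, with 9 at an unadjusted p under 0.05. Against Prepuberty Gstp3 (3.89, adjusted p = 0.0388) and Ggct (1.38, adjusted p = 0.0461) were higher and Mgst1 (−1.97, adjusted p = 0.0311) and G6pdx (−1.47, adjusted p = 0.0388), the NADPH-producing dehydrogenase, were lower. The medians were −0.03 and −0.29, beside 0.08 and 0.09 over all genes. Gclm was at 73.21 to 121.2 CPM in the glands and 60.17 and 65.68 CPM in Tumor, and Slc7a11 was at most 10.24 CPM, neither being called. Over members and list together the single call against DCIS was lost without any gland library and was 9 without Tumor 1 and 7 without Tumor 2, while the 7 against Prepuberty were 0 without any gland library and 12 without either Tumor library.

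Between DCIS and Prepuberty no list gene was called in any of the 4 classes. Unadjusted p-values under 0.05 were found for 2 genes in fibroblast-like (Prdx6 and Slc3a2, both higher in DCIS), 7 in epithelial-like, 7 in endothelial-like and 2 in macrophage-like cells.

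**Figure D5:**
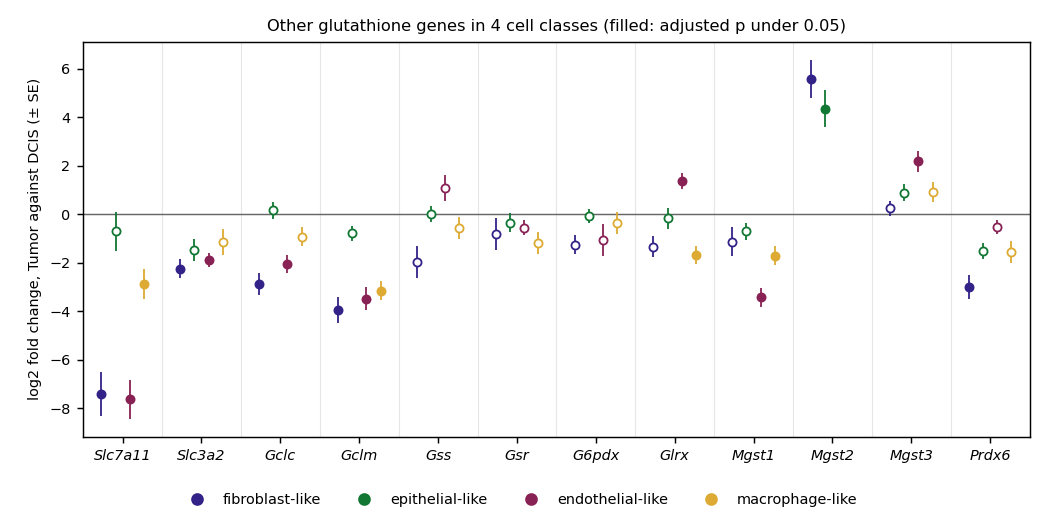
Log2 change from DCIS to Tumor with its standard error for 12 genes of glutathione synthesis, recycling and detoxification in the 4 tested classes, filled where the adjusted p passes 0.05. Slc7a11 (−7.41 and −7.62) and Gclm (−3.95 and −3.47) are lower in fibroblast-like and endothelial-like cells, and Mgst2 is higher in fibroblast-like (5.58) and epithelial-like cells (4.35).

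Levels over the 48 pairs of a named class and a library gave the genes most like each member, by Pearson's r on the log2 scale with a pseudocount of 1. The pairs share libraries and depth, so these values are a description. Gsta1 was most like Gm3776 (r = 0.931), then Slc1a7 (0.909) and Prdm6 (0.891), and Gm3776 like Gsta1, Slc1a7 (0.927) and Gm36211 (0.912). Gsta4 was most like Ecel1 (0.764) and Klf15 (0.755), with Gsta1 next at 0.740, and Gsta3 was most like Slc1a7 (0.699), Mrap (0.687) and Gsta2 (0.681). Gstm2 was most like Hoxc8 (0.945), Hoxc6 (0.938) and C1ra (0.915), and Gstm1 like Gm4951 (0.80), Msantd3 (0.797) and Sod2 (0.794). The nearest genes were Mesd (0.781), Stt3b (0.760) and Shmt2 (0.756) for Gstp1, and Gpc6 (0.738), Uggt2 (0.735) and Ift74 (0.733) for Gsto1. Those of Gpx2 were Them5 (0.797), Csdc2 (0.785) and Lgals7 (0.772), and those of Gpx3 were Tbx3 (0.797), Col6a3 and Rbms3 (both 0.769). Neither mu-class gene was among the 3 nearest of the other.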

How the data were processed

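Single-cell suspensions of whole mammary glands and tumours were captured with droplet 3′ chemistry, and the authors deposited 1 matrix of raw UMI counts per library made with Cell Ranger. The submitters' processing notes name mm10 with no role, and the build used for these matrices is not given in the sources used here. From the 23835 deposited barcodes, cells with fewer than 200 genes (546) or more than 10% mitochondrial UMIs (1045) were left out, and 707 doublets were removed at the expected rate because the automatic threshold of the doublet caller marked only 31 cells. Barcodes shared by 2 libraries numbered 7 to 34 per pair. The remaining 237053414 UMIs were clustered with Seurat 5.3.0 after integration (2000 variable features, 20 dimensions, resolution 0.8), and clusters with at least 3 markers of a type were named after it.

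UMIs were summed per class and library, leaving out libraries with fewer than 10 cells, and tested with edgeR 4.0.16 (R 4.3.3; quasi-likelihood test, TMM scaling, filtering of low counts, Benjamini-Hochberg adjustment over all genes of a class, threshold 0.05) with the state as the model term and all 6 libraries in the fit. The standard error is the log2 change divided by the square root of F. DESeq2 1.42.0 was an alternative. Scripts were tested on simulated counts. The text names every member, the list genes past the threshold and the 3 genes most like each member among genes with at least 100 UMIs. The members, the list and the class markers were chosen with earlier results of these data known. Sequences were read from RefSeq tables on GRCm38.p6 and GENCODE M21 transcripts, since the files' identifiers matched these for 30934 of 31055 features. Alternatives were another test, scaling, filter, model, clustering, mitochondrial limit (5%) and depth, each library left out, and cells with T antigen left out.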

Additional observations from a re-analysis of the deposited data

Results flagged for a closer look

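The change of Gpx3 from DCIS to Tumor differed between classes in a test of the difference itself (edgeR, adjusted over all genes). The log2 difference was −8.29 between epithelial-like and endothelial-like cells (adjusted p = 0.025), −5.67 between epithelial-like and macrophage-like cells (adjusted p = 0.00466) and 2.56 between endothelial-like and macrophage-like cells (adjusted p = 0.0295). Over each class as a whole, Gpx3 in each Tumor library was below both DCIS libraries in epithelial-like cells and above both in endothelial-like cells. In the latter, the 15 UMIs of Tumor 2 (52.12 CPM, counting interval 29.17 to 85.96) do not set it apart from DCIS 2 (50.54 CPM). Within cluster 6 of the endothelial-like cells Tumor 2 (53.93 CPM) was below DCIS 2 (68.96 CPM). Cluster 10, at 16.34 and 26.06 CPM in DCIS, held 255 and 169 DCIS cells but 7 and 5 Tumor cells. The part of this mix in the differences was not tested.

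In further pairs of classes every library of a state moved in opposite directions, and these differences were not tested. Gstp1 was lower in Tumor than in Prepuberty in fibroblast-like and endothelial-like cells and higher in macrophage-like cells, with log2 differences of −3.27 and −3.83. Gpx3 was lower in DCIS than in Prepuberty in endothelial-like cells and higher in macrophage-like cells, with a log2 difference of −3.05. Gstp1 in macrophage-like cells was low, at 1.297 to 14.95 CPM, with 3 UMIs in each Prepuberty library, and Gpx3 there was at 22.71 CPM in DCIS 1 and 21.93 CPM in Prepuberty 1 (35 and 10 UMIs), so that every library moved one way is not shown beyond counting error in macrophage-like cells.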

How the results depend on the processing

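The number of members and list genes past the threshold depended on the settings. Against DCIS, leaving out single libraries gave 2 to 12 in fibroblast-like (10 in the main fit, list genes only), 0 to 9 in epithelial-like (1), 7 to 12 in endothelial-like (12) and 1 to 8 in macrophage-like cells (6). Against Prepuberty it gave 3 to 11 (10), 0 to 12 (7), 7 to 10 (11) and 1 to 6 (3). DESeq2 gave 7 and 17 in epithelial-like cells against DCIS and Prepuberty, and 2 in epithelial-like and 2 in endothelial-like cells between DCIS and Prepuberty. Without a filter on low counts the counts were 17 and 16 in fibroblast-like, 8 and 18 in epithelial-like, 19 in endothelial-like and 9 in macrophage-like cells (the last 2 against Prepuberty), and 2 and 6 in epithelial-like and endothelial-like cells between DCIS and Prepuberty. With only the 4 libraries compared they were 0 and 0 in epithelial-like cells and 1 in macrophage-like cells against Prepuberty. Without T antigen-positive cells the epithelial-like counts were 0 and 3. Without doublet removal the epithelial-like count against DCIS was 0, with thinned sums 2, without integration 3 and with library totals 2. Thinned sums gave 3 in macrophage-like cells against DCIS, and library totals 1 against Prepuberty.

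Without integration the counts were 5 in fibroblast-like cells against Prepuberty and 2 and 1 in endothelial-like cells, where most Tumor cells fell outside the class. There Gstm1 turned to 0.86 and Gsto1 to −1.62 against DCIS and −2.17 against Prepuberty, and Glrx to −9.49 and −8.69. With the unnamed cluster added, the counts were 12 and 11.

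With the library number as a replicate block, the count was 0 against DCIS and 2 against Prepuberty in epithelial-like cells (Gpx3 at −6.66, adjusted p = 0.0604) and 1 between DCIS and Prepuberty in endothelial-like cells. The labels do not pair libraries of the same number, and the correlations of their deviations between states were 0.112 to 0.320 in fibroblast-like, −0.073 to 0.072 in epithelial-like, 0.040 to 0.357 in endothelial-like and 0.022 to 0.130 in macrophage-like cells. Other causes were not tested. Of the settings other than a left-out library, 79 values of called members kept their side of the threshold, 9 lost it and 3 turned, while 31 values of uncalled members passed it. With a library left out, 29 values of called members kept it and 19 lost it, and 13 of uncalled members passed. With all-gene medians moving from 0.08 to 0.49 in epithelial-like, −0.02 to 0.35 in endothelial-like and 0.06 to 0.67 in macrophage-like cells for Tumor against DCIS under library totals, calls split as 113 higher and 62 lower (58 and 133 with TMM), 1172 and 391 (731 and 652), and 745 and 171 (185 and 310). Against Prepuberty the split was 606 and 279 in epithelial-like (403 and 461) and 296 and 222 in macrophage-like cells (146 and 311). Tumor fibroblast-like (250 and 278) and endothelial-like cells (79 and 35) set the depth limits.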

Other observations

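An unnamed cluster led by Wnt10a, Npy and Stmn2, with 53.6% of its cells positive for T antigen, held 268 and 327 Tumor cells, 86 and 47 Prepuberty cells and 6 and 37 DCIS cells. Its Gsta4 level was 477.8 and 317.1 CPM in Prepuberty, 106 and 47.17 CPM in DCIS, and 3.629 and 10.47 CPM in Tumor. Gsto1 was at 87.99 and 125.5 CPM in Prepuberty, 26.5 and 47.17 CPM in DCIS, and 213 and 156.3 CPM in Tumor. Gsta1 was at 92.08 and 16.52 CPM in Prepuberty, 0 in both DCIS libraries, and 0.2135 and 0 CPM in Tumor. T antigen was at 0 CPM in both Prepuberty libraries, 0 and 5.896 CPM in DCIS (1 UMI), and 316.8 and 70.28 CPM in Tumor. The DCIS values rested on 4 and 8 Gsta4 UMIs and on 1 and 8 Gsto1 UMIs. In this cluster, which belongs to no class of the comparisons, Tumor had the lowest Gsta4 and the highest Gsto1 levels. Whether its cells were of the same kind in each state was not tested.

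Without integration, a fibroblast-like cluster led by H19 and Mmp13 came from Tumor 2, with 189 of its cells, out of 229 Tumor 2 fibroblast-like cells in that clustering. T antigen UMIs were found in 52.4% of the cells of that cluster. Gpx3 was at 29.93 CPM and Gsta4 at 2.547 CPM in those cells, whereas Gpx3 in the Tumor 2 cells of the matrix cluster was at 674.8 CPM.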
